A study of Mus musculus with 8 samples.

Results

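Among the 16399 RBM45 peaks found in both wild-type (WT) CLIP libraries, 304 lay in genes for long non-coding RNAs (lncRNAs). A peak was taken when its midpoint fell in the body of a gene on its own strand that GENCODE M21 types as lincRNA, antisense, processed_transcript, sense_intronic or bidirectional_promoter_lncRNA, and in no protein-coding gene of that strand. A further 15960 shared peaks lay in protein-coding genes and 135 in neither kind of gene. The 304 peaks fell in 185 of the 10120 lncRNA genes of these 5 types. Each is a replicate 2 peak of which a replicate 1 peak covers at least 50%, a condition that 4.76% of all replicate 2 peaks met.

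RBM45 binds RNA through its RNA recognition motifs, and the series located its sites by iCLIP, in which UV light crosslinks protein to RNA and the RNA pulled down with the protein is sequenced. The design sets out to map these sites with and without the RNA mark m6A. The cells were mHippoE-2, a transformed mouse hippocampal neuronal line, and every group, controls included, expressed mouse Rbm45 from a lentivirus as a FLAG-HA fusion, so the protein profiled was the tagged transgene. The 8 libraries form 4 groups of 2: Mettl3 KO CLIP (cells without the catalytic subunit of the main m6A writer), Mettl3 KO input, WT CLIP and WT input, CLIP with an antibody to the HA tag and size-matched input without antibody. All cells grew in medium with serum. For the Mettl3 KO cells, at 85% confluency, the labels give UV crosslinking as 2 doses, each of 150 mJ/cm2, and for the WT cells they give no dose. They name no clone for the knockout. All values below are those of the WT CLIP libraries, replicates 1 and 2. No label states whether the replicates were separate cultures, and the read depth behind the peaks is unknown. In these lists, 8 of 8 neuron markers and 3 of 5 neural progenitor markers had a peak in both replicates. So did 3 of 4 each for astrocyte, oligodendrocyte and microglia and 2 of 4 endothelium markers. A shared peak was held by 4 of the 8 neuron markers and by 0 to 2 of each other set. The share over all genes was not taken, so these counts do not identify the cell type.

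lncRNAs are transcripts without a long open reading frame. Some, such as those of Neat1 and Malat1, stay in the nucleus and associate with nuclear bodies, some overlap protein-coding genes in antisense, and others mainly serve as host transcripts whose introns or exons are processed into snoRNAs or miRNAs. Many are spliced from long introns, like mRNA precursors, and RBM45 is itself a mostly nuclear protein.

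Sequences are given for the peaks that the results below turn on, 5′ to 3′ on the strand of the peak, read from GENCODE M21 transcripts (build GRCm38, mm10). Such a reading was possible for 89 of the 304 peaks. The first set shows where a shared peak lies over an annotated small RNA gene, with the bases inside that gene in capitals. Snhg1 at chr19:8724891-8724950 and Zfas1 at chr2:167063500-167063567 are peaks over a snoRNA on the same strand, and 2700038G22Rik at chr5:23852238-23852267 is the peak over Snord93.
Snhg1 over Gm24453: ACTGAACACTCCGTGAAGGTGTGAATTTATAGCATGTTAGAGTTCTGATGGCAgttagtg
Zfas1 over Gm25878: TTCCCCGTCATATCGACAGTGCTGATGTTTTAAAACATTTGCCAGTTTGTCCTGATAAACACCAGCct
2700038G22Rik over Snord93: TGGATACGCTGCTGTGATGGGTTAAAGGAT

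The second set holds strong or exonic peaks outside Neat1 and Malat1. Capitals mark matches to the m6A consensus named DRACH and runs of 5 T (5 U in RNA). The peaks are Snhg5 at chr9:88522101-88522181, the pair of AI506816 at chr5:23702883-23702918 and chr5:23702818-23702859, Pvt1 at chr15:62249468-62249518, Gm15545 at chr7:44991340-44991445 and 4930483K19Rik at chr10:76547623-76547684. For the last pair of genes the sequence was read from the opposite-strand transcripts of Bcl2l12 and Lss and reverse complemented.
Snhg5: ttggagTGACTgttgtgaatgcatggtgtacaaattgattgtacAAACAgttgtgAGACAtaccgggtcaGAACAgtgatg
AI506816, first: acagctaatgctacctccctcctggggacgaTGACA
AI506816, next: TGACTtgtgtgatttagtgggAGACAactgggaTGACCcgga
Pvt1: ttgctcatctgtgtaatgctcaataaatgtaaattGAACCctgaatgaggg
Gm15545: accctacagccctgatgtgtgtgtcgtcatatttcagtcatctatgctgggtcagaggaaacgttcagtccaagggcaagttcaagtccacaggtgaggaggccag
4930483K19Rik: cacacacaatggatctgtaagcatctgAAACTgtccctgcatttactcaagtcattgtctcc

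Shared peaks in lncRNA genes had the same median width as those in protein-coding genes and the same median of the lower of both replicates' folds. Most were weak and narrow. Fold here is the authors' value per peak, the pileup over the background of the peak caller, and the lower of the values in replicates 1 and 2 was used to rank peaks. Where a peak is given with a pair of folds and no more, they are those of replicates 1 and 2 in that order. The median lower fold was 1.92 (quartiles 1.90 and 2.73) over the 304 peaks in lncRNA genes and 1.92 (quartiles 1.87 and 2.76) over the 15960 in protein-coding genes. By replicate, the median fold was 1.95 for each kind of gene in replicate 1. In replicate 2 it was 1.92 in lncRNA genes and 2.38 in protein-coding genes. The lower fold was under 2 in 198 of the 304 peaks (65.1%, Wilson 95% interval 59.6 to 70.3) and in 67.3% of those in protein-coding genes. The smallest width, 30 nt, was that of 64.5% of the lncRNA peaks and 68.1% of the protein-coding ones. All intervals cover counting error over peaks only, and no difference between the kinds of gene was tested.

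A fold of at least 5 in both replicates was reached by 20 of the 304 peaks (6.58%, interval 4.30 to 9.94), against 5.52% of shared peaks in protein-coding genes and 5.54% of all shared peaks. A fold of at least 10 in both was reached by 5 peaks in lncRNA genes (1.64%) and 221 in protein-coding genes, against 1.39% of all shared peaks. Those 5 lay in Gm15545, Brip1os, Neat1 (a pair) and C230035I16Rik. The folds of replicates 1 and 2 had a Spearman correlation of 0.57 over the 304 peaks and 0.46 over the peaks in protein-coding genes, given as a description, since each set of points comes from the same pair of libraries. Replicate 1 had the higher fold in 212 of the 304 peaks and in 67.9% of those in protein-coding genes.

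**Figure D1:**
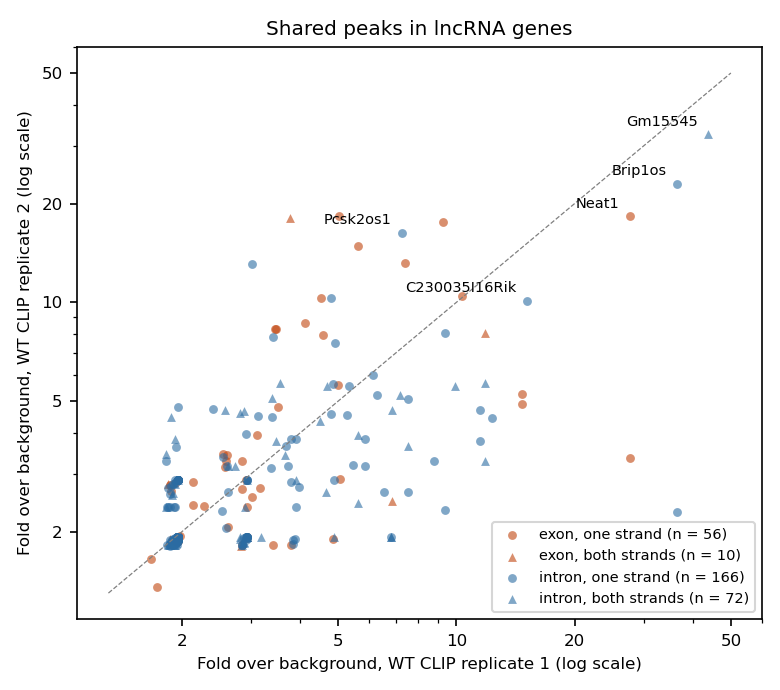
Fold over background of the 304 shared peaks in lncRNA genes, WT CLIP replicate 1 on the x axis and replicate 2 on the y axis (log scales), coloured by exon or intron, with triangles for intervals listed on both strands and the dashed line at equal folds. Most points lie near a fold of 2 in both replicates, and Gm15545, Brip1os and Neat1 hold the points farthest along the line.

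By gene type, 117 of the 304 peaks (38.5%) lay in 73 antisense genes, 104 (34.2%) in 63 lincRNA genes, 79 (26.0%) in 46 processed_transcript genes and 4 in 2 bidirectional_promoter_lncRNA genes. None of the 327 sense_intronic genes held one. Since peaks in a protein-coding gene of the same strand were left out, this does not show an absence of shared peaks from such genes. The sense_intronic gene Peg13 had 1 shared peak, which is not among the 304. The 4 peaks in the overlap of the processed_transcript gene 3110039I08Rik and the lincRNA gene Gm49317 are counted under processed_transcript, which leaves Gm49317 out of the counts of genes by type. RefSeq types 171 of the 185 genes as lncRNA and 2, Trerf1 and Zswim6, as protein-coding. Those 2 genes held 17 of the 304 peaks, so the GENCODE type that put them here is not shared by both annotations.

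Most genes held a single shared peak. This was so in 136 genes, while the 18 genes with 3 or more held 106 of the 304 peaks (34.9%). Of the 936 lncRNA genes with a peak in both replicates, 185 (19.8%, interval 17.3 to 22.4) had a shared one. The median gene length was 27.2 kb for genes with a shared peak, 24.1 kb for the 936 genes and 6.14 kb for all 10120 lncRNA genes.

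**Figure D2:**
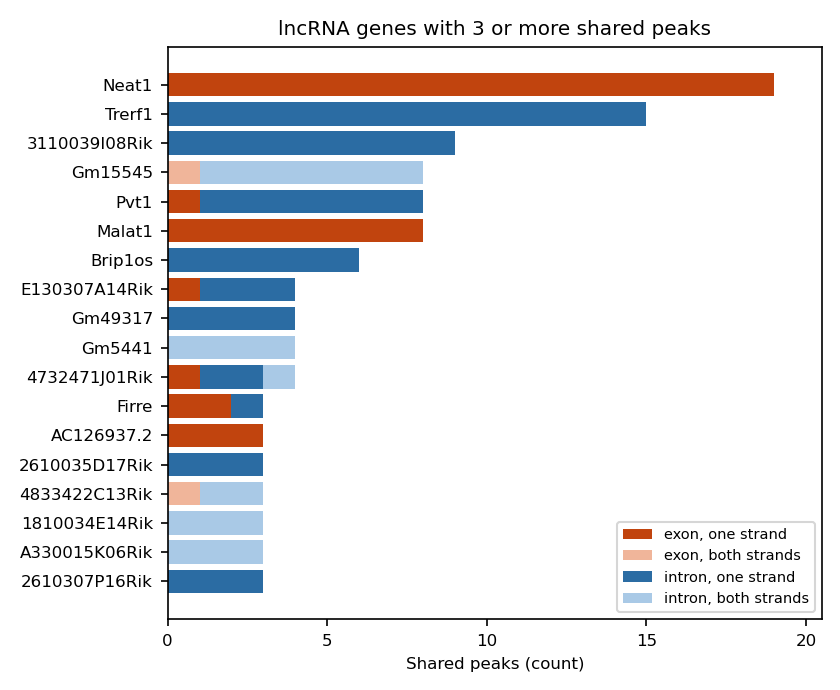
Number of shared peaks (x axis) in each of the 18 lncRNA genes with 3 or more, split into exonic and intronic peaks and into intervals listed on a single strand or on both strands. Neat1 and Malat1 hold only exonic peaks, Trerf1 and 3110039I08Rik only intronic ones, and all 8 peaks of Gm15545 are listed on both strands.

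The nuclear RNAs Neat1 and Malat1 held 19 and 8 of the 304 peaks, all exonic, since each gene is annotated as a single exon block. The strongest Neat1 peak, at chr19:5825233-5825568, had a fold of 27.7 in replicate 1 and 18.3 in replicate 2, and no Malat1 peak reached a fold of 5 in both.

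Trerf1, annotated in RefSeq as the gene of a transcriptional regulating factor, held 15 peaks, none of them in an exon. They were spread over 154 kb of its 221 kb, with folds of 1.87 to 11.5 in replicate 1 and 1.82 to 4.70 in replicate 2. A pair 4425 and 4544 nt from the gene start shared the wide replicate 1 peak of fold 11.5 and had folds of 3.77 and 4.70 in replicate 2. The other Trerf1 peaks did not exceed a fold of 4.88 in replicate 1 or 2.88 in replicate 2.

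Pvt1, a lincRNA gene beside Myc that is known in human for its place in cancer amplicons, held 8 peaks, 1 of them exonic. All 8 had folds above 3 in both replicates, between 3.10 and 12.3 in replicate 1 and between 3.13 and 6.02 in replicate 2. The strongest by the lower fold, at chr15:62057851-62057886, had folds of 6.14 and 6.02 and lay 19668 nt from the nearest exon. Its exonic peak, whose sequence is given above, had folds of 3.10 and 3.93. The 8 peaks fell in a group near the gene start, a pair near 132 kb and a group from 205 to 212 kb from the start, out of 340 kb.

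Brip1os, a gene typed as antisense and named after the DNA repair helicase gene Brip1, held 6 peaks, 5 of them within 1306 nt of its start. No protein-coding gene lay opposite the midpoint of any of the 6 peaks. The strongest, at chr11:86201892-86202305, was an intronic peak of 414 nt with a fold of 36.5 in replicate 1 and 23.0 in replicate 2. Only the Gm15545 peak described below exceeded it among the 304. The next, at chr11:86201610-86201660, had folds of 9.35 and 8.06. The peak farthest from the start, at 59.1 kb, had folds of 1.90 and 1.82.

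Firre, a nuclear lncRNA gene on the X chromosome, held 3 peaks, 2 of them exonic, with folds of 1.92 to 4.87 in replicate 1 and 1.90 to 3.29 in replicate 2. AC126937.2 held 3 exonic peaks within 0.249 kb, with folds of 2.84 to 3.79 in replicate 1 and 1.82 to 1.83 in replicate 2. E130307A14Rik and 4732471J01Rik held 4 each, of which 1 each was exonic, and 2610035D17Rik and 2610307P16Rik held 3 each, all intronic. In these 4 genes no fold exceeded 3.84 in replicate 1 or 2.88 in replicate 2.

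**Figure D3:**
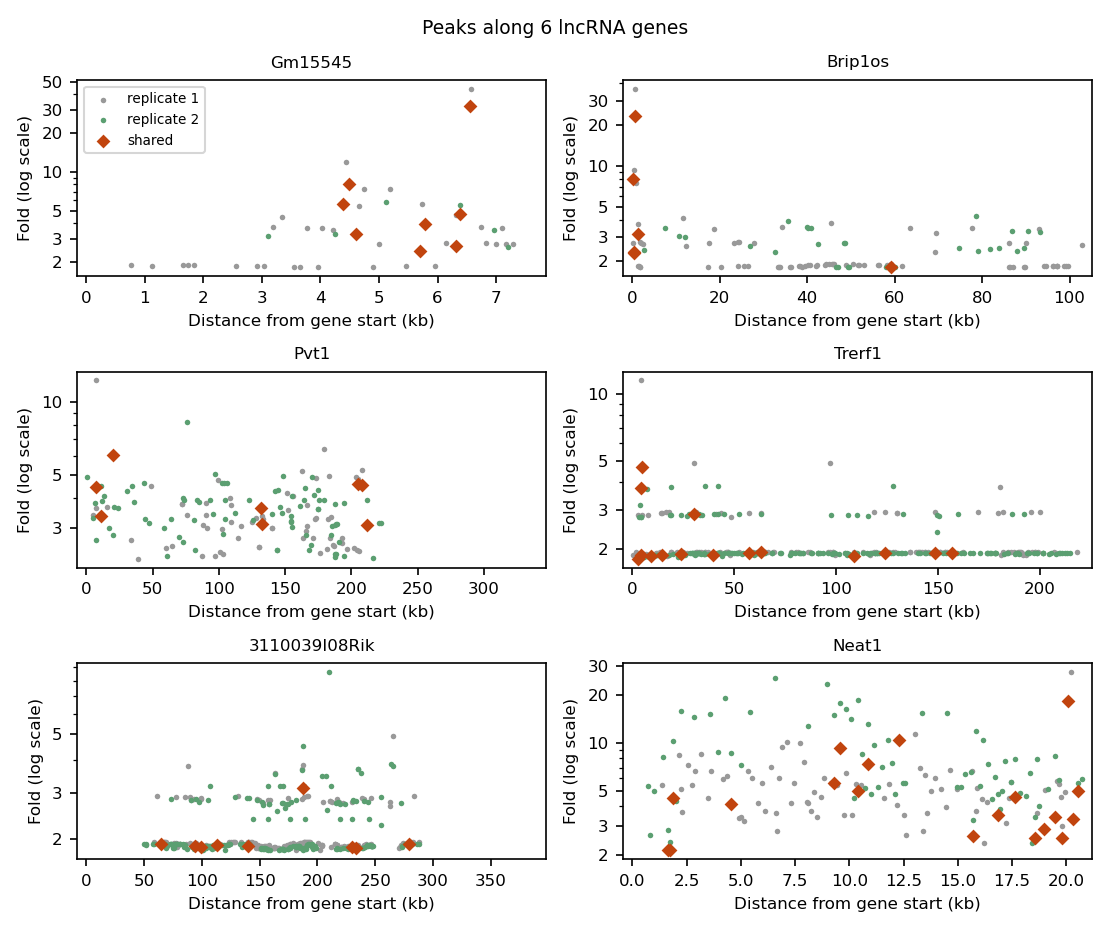
Fold (log scale) of every peak of replicate 1, replicate 2 and the shared list (drawn at its lower fold) against distance from the gene start in kb, for 6 lncRNA genes. The strong shared peaks of Brip1os stand within 1306 nt of its start, those of Gm15545 between 4.38 and 6.55 kb, and those of Trerf1 and 3110039I08Rik are scattered over their introns mostly near a fold of 2.

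In exons lay 66 of the 304 peaks (21.7%, interval 17.4 to 26.7), against 1727 of the 15960 in protein-coding genes (10.8%, interval 10.3 to 11.3). Without Neat1 and Malat1 the exonic share in lncRNA genes was 39 of 277 (14.1%, interval 10.5 to 18.7). Over all replicate 2 peaks, shared or not, the exonic share was 12.4% in lncRNA genes and 8.52% in protein-coding genes. Per length of the 185 genes, exons held 0.125 shared peaks per kb and introns 0.0220 per kb. Without Neat1 and Malat1 exons held 0.0780 per kb. No such density was taken in protein-coding genes. The intronic peaks lay a median of 2444 nt from the nearest exon of their gene, and 19 of 238 lay within 100 nt of one. Exonic peaks had a median lower fold of 2.13 and a median width of 37.5 nt, against 1.92 and 30 nt for intronic ones. Exonic peaks in protein-coding genes had medians of 1.92 and 30 nt. Neat1 and Malat1 were not left out of these medians. They held none of the 196 peaks of 30 nt, and Neat1 held 6 of the 8 exonic peaks with a fold of at least 5 in both replicates.

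Of the 304 peaks, 82 (27.0%, interval 22.3 to 32.2) stood in the shared list a second time as the same interval on the opposite strand, against 267 of the 15960 peaks in protein-coding genes (1.67%). For 76 of the 82 the other copy was counted among the peaks in protein-coding genes. The rest include an interval counted among the 304 on each strand, in Gm20754 and in a lncRNA gene opposite it. In antisense genes 70 of 117 peaks (59.8%) were of this kind, in lincRNA genes 5 of 104 and in processed_transcript genes 7 of 79. Where a protein-coding gene lay opposite the midpoint, 76 of 86 peaks in lncRNA genes were listed on both strands, against 6 of 218 where none did. For such an interval the list does not say which strand the bound RNA came from, so the lncRNA and the protein-coding transcript cannot be told apart. Nothing used here states how strand was assigned in the deposited lists. Of the 16399 shared peaks, 15362 (93.7%) had a gene at their midpoint on their own strand alone and 64 had one on the opposite strand alone, and 61 of those 64 were listed on both strands. If the strand was taken from the annotation, a peak on a single strand says nothing of the strand of its RNA either; this was not tested.

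Gm15545 was the clearest case, with 8 peaks between 4.38 and 6.55 kb from its start, all on both strands and opposite Bcl2l12, a gene of the Bcl2 family. The strongest, at chr7:44993355-44993553, was an intronic peak of 199 nt with a fold of 43.8 in replicate 1 and 32.6 in replicate 2, the highest lower fold of the 304. Its exonic peak, whose sequence is given above, had folds of 11.9 and 8.06. Gm5441 held 4 such peaks opposite Ptprn2, a gene of a dense-core vesicle protein, with folds no higher than 1.95 in replicate 1 and 3.84 in replicate 2. 4833422C13Rik, 1810034E14Rik opposite Cdc14b and A330015K06Rik opposite the potassium channel subunit gene Kcnab1 held 3 each, with no fold above 2.88 in replicate 1 or 4.67 in replicate 2. 4930483K19Rik, opposite the lanosterol synthase gene Lss, held a pair with folds of 9.90 and 7.20 in replicate 1 and 5.56 and 5.23 in replicate 2.

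Small RNA genes (miRNA, snoRNA or scaRNA) lay inside 179 lncRNA genes on the same strand. Of these hosts, 49 had a peak in both replicates and 15 a shared peak, against 185 of the 936 lncRNA genes with a peak in both replicates, and these 15 held 27 of the 304 peaks. Of the 27, 5 lay within 500 nt of a hosted small RNA, those directly over it included. A shared peak lay directly over a hosted small RNA in 3 hosts, all of them snoRNA hosts. In Snhg1 the peak over Gm24453 had a fold of 3.01 and a −log10 p of 9.91 in replicate 1, and a fold of 13.1 and a −log10 p of 178 in replicate 2, the highest −log10 p of replicate 2 among the 304. The −log10 p is the authors' value per peak and is not adjusted for the number of peaks. In Zfas1 the peak over Gm25878 had folds of 2.60 and 2.05, and in 2700038G22Rik the peak over Snord93 had folds of 3.18 and 1.93 and was listed on both strands. As the sequences above show, 53 of the 60 bases in Snhg1, 66 of the 68 in Zfas1 and all 30 in 2700038G22Rik lie inside the snoRNA gene. Mature snoRNA and host transcript share these bases and cannot be told apart there.

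In other hosts the shared peaks did not overlap the small RNA, at distances of 142 nt and more. Snhg5 held a pair of peaks 142 and 273 nt from Snord50b, with folds of 3.79 and 5.33 in replicate 1 and 3.84 and 5.54 in replicate 2. They are intronic by the GENCODE basic transcripts used for placement, but each lies within an exon of the transcript Snhg5-206. AI506816 held a pair of exonic peaks 8090 and 8152 nt from Mir3096, which share a replicate 1 peak of fold 14.7 and had folds of 5.27 and 4.91 in replicate 2. Mirg, a host of the imprinted miRNA cluster on chromosome 12, held 1 peak 964 nt from Mir410, with folds of 2.93 and 2.88. Ftx held 1 peak 21731 nt from Mir374b, with folds of 2.54 and 3.37.

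3110039I08Rik, whose introns hold Mir100, Mirlet7a-2 and Mir125b-1, carried 9 intronic peaks, 4 of them also inside Gm49317. Their folds ran from 1.87 to 3.12 in replicate 1 and from 1.86 to 4.51 in replicate 2. The nearest peaks lay 17186 nt from Mir100, 20448 nt from Mirlet7a-2 and 21526 nt from Mir125b-1, so no shared peak lay over a miRNA gene of this cluster. Replicate 2 alone had 1 peak over Mirlet7a-2 and 1 over Mir125b-1. Mature miRNAs of this host, from the RefSeq miRNA table (GRCm38.p6), are shown with the seed, bases 2 to 8, in capitals. These 3 seeds differ from each other. Mir100 and Mir125b-1 are shown by their 5p products and Mirlet7a-2 by its 3p product. The 5p product of Mirlet7a-2 is not shown, so its seed is not among these.
miR-100-5p: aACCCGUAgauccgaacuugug
let-7a-2-3p: cUGUACAGccuccuagcuuuc
miR-125b-5p: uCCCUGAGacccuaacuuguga

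Of the remaining hosts, Zswim6 held a pair with folds of 3.98 and 7.54 in replicate 1 and 2.74 and 2.63 in replicate 2, the nearer 10519 nt from its hosted Gm22118. Gm20754 held 1 peak listed on both strands, with folds of 6.83 and 1.92. Rmst, Sox2ot and 9330159M07Rik held 1 peak each, with folds of 1.92 and 1.87 in Rmst, 3.89 and 1.90 in Sox2ot and 1.95 and 1.92 in 9330159M07Rik. 2610307P16Rik, already named, hosts Mir6368, 9147 nt from its nearest peak.

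For the next counts the small RNA genes were those of either strand, with snRNA, rRNA and misc_RNA genes included. Such genes were overlapped by 5 of the 304 peaks (1.64%, interval 0.705 to 3.79), against 45 of the 15960 in protein-coding genes (0.282%, interval 0.211 to 0.377). Besides the 3 snoRNA peaks, 2 lay opposite snRNA genes, of which the peak in 4930407I19Rik had folds of 3.90 and 3.84.

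RefSeq tRNA genes were overlapped by 2 of the 304 peaks and by none of the 15960 in protein-coding genes, where 0 allows a share of up to 0.0241% by the Wilson interval. Over the 430 RefSeq tRNA genes no other peak of the shared list was found, and strand was left out of this comparison. Sequence that resembles a tRNA outside these 430 genes was not searched for. The counts, the 0 included, therefore do not show that other shared peaks lack such sequence. In C230035I16Rik the intronic peak at chr13:23428744-23428773 lay wholly in n-TYgta6, with folds of 15.1 and 10.1. In B230208H11Rik the exonic peak at chr10:12922556-12922619 overlapped n-TLtaa3 by 49 nt, with folds of 3.47 and 8.31. These tRNA and lncRNA transcripts cannot be told apart either.

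Setting aside peaks on both strands, those in genes that RefSeq types as protein-coding and those over a small RNA or tRNA gene left 199 of the 304 (65.5%, interval 60.0 to 70.6) in 125 genes. Of these, 27 lay in Neat1 or Malat1 and 55 were exonic. A fold of at least 5 in both replicates was reached by 14 of the 199 (7.04%). They include the peak of Pcsk2os1, an antisense gene of the prohormone convertase gene Pcsk2, at chr2:143543991-143544020, an intronic peak of 30 nt with folds of 7.28 in replicate 1 and 16.3 in replicate 2.

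Among well known lncRNA genes, the counts below stand beside the 185 of 936 lncRNA genes with a peak in both replicates (19.8%) that had a shared one. The lists were chosen by hand, and no difference from that share was tested. Of 15 matched nuclear architecture lncRNAs, 12 had a peak in both replicates and 5 a shared one: Neat1, Malat1, Pvt1, Firre and Airn, the last an imprinted antisense gene with a pair of intronic peaks of folds 5.47 and 3.202 and of folds 1.89 and 1.87. Of 13 imprinted and X-inactivation lncRNAs, 11 had peaks in both and 4 a shared peak of the kind described here, in Airn, Mirg, Ftx and Jpx, an activator of Xist, whose exonic peak had folds of 1.88 and 2.66. Xist itself had 1 peak in replicate 1 and none in replicate 2. Meg3 had 1 and 3, Kcnq1ot1 23 and 42, and neither had a shared peak.

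Of 18 matched snoRNA hosts, 5 had peaks in both replicates and 3 a shared one, Snhg1, Snhg5 and Zfas1. Gas5, a further snoRNA host, had no peak in replicate 1 and 4 in replicate 2. Of 20 matched genes listed as miRNA hosts, 10 had peaks in both and 4 a shared peak counted among the 304, in Pvt1, Mirg, Ftx and Lncpint, a p53-responsive gene whose peak had folds of 2.93 and 1.91. Inside Pvt1 and Lncpint, GENCODE M21 places no miRNA, snoRNA or scaRNA gene on the same strand. Mir99ahg had 54 and 62 peaks and none shared.

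Of 17 matched neural lncRNAs, 14 had peaks in both replicates and 5 a shared peak counted among the 304. Besides Rmst, Sox2ot and 2610307P16Rik these were Crnde, with folds of 1.95 and 2.88, and A330008L17Rik, with folds of 1.95 and 1.92. Of 14 matched growth, stress and p53 lncRNAs, 10 had peaks in both and 4 a shared one, Fendrr beside Pvt1, Lncpint and Zfas1. Fendrr held a pair of intronic peaks with folds of 1.83 and 1.83 in replicate 1 and 2.38 and 1.82 in replicate 2.

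How often a replicate 2 peak had a replicate 1 partner, over at least 50% of its length, depended on the replicate taken as the base. For replicate 2 peaks it was 304 of 7437 in lncRNA genes (4.09%, interval 3.66 to 4.56), 4.78% in protein-coding genes (interval 4.71 to 4.86) and 4.76% over all 344700 peaks. In exons it was 7.14% in lncRNA genes (interval 5.65 to 8.99) and 6.07% in protein-coding genes, and in introns 3.65% (interval 3.23 to 4.14) and 4.66%. Taken from replicate 1, the share with a replicate 2 partner was 367 of 7014 in lncRNA genes (5.23%, interval 4.74 to 5.78), against 4.17% in protein-coding genes (interval 4.10 to 4.23) and 4.18% over all replicate 1 peaks, and without Neat1 it was 4.06% in lncRNA genes (interval 3.62 to 4.55). Among replicate 2 peaks with a −log10 p of at least 5, it was 71 of 380 in lncRNA genes (18.7%), against 18.9% over all 16537 such peaks.

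For the strongest peaks the shares stood apart, and differently from each replicate. At a −log10 p of 10 or higher, 32 of 111 replicate 2 peaks in lncRNA genes (28.8%, interval 21.2 to 37.9) had a partner, against 728 of 1059 in protein-coding genes (68.7%, interval 65.9 to 71.5) and 64.8% over all such peaks. Neat1 gave 54 of the 111, with a median width of 148 nt, and 12 of those 54 had a partner over at least 50% of their length while 38 had one of at least 1 bp. Without Neat1 the share in lncRNA genes was 20 of 57 (35.1%, interval 24.0 to 48.1). From replicate 1, peaks with a −log10 p of at least 5 had a partner in 20.9% in lncRNA genes, against 10.8% in protein-coding genes and 11.04% over all such peaks, and without Neat1 in 12.4% in lncRNA genes (interval 10.1 to 15.2). Neat1 alone had one in 98.6% of such peaks from replicate 1 and in 24.3% from replicate 2. Counting any overlap of 1 bp, the replicate 2 share at a −log10 p of 10 or higher was 61 of 111 (55.0%, interval 45.7 to 63.9), against 76.9% in protein-coding genes. Without Neat1 this share was 23 of 57 (40.4%, interval 28.6 to 53.3).

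**Figure D4:**
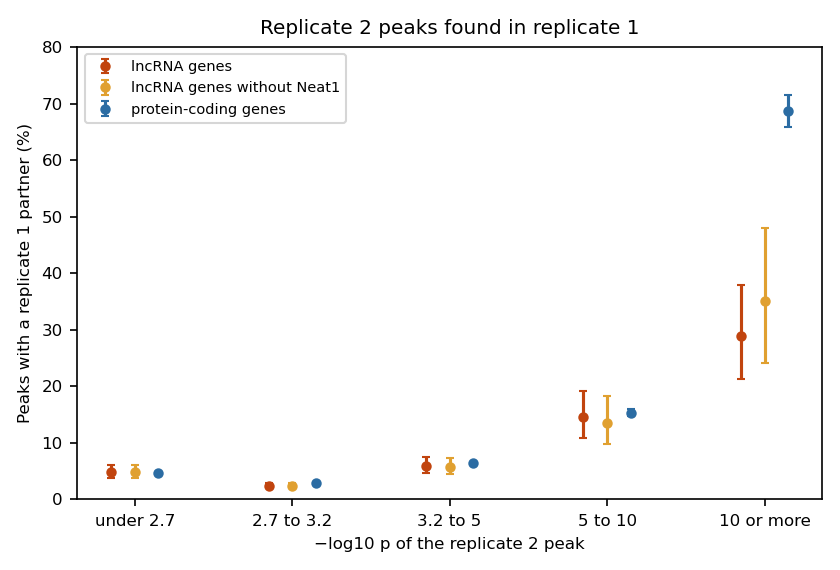
Percent of WT CLIP replicate 2 peaks with a replicate 1 partner over at least 50% of their length, by −log10 p class of the replicate 2 peak, for lncRNA genes, lncRNA genes without Neat1 and protein-coding genes, with Wilson 95% intervals. The intervals of lncRNA and protein-coding genes are apart in the class of 10 or more, at 28.8% against 68.7%.

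Peaks of fold 10 or more in lncRNA genes were also looked up at an overlap of at least 1 bp. All 11 such replicate 1 peaks overlapped a replicate 2 peak, and 30 of the 31 such replicate 2 peaks overlapped a replicate 1 peak. The exception, in 4930586N03Rik at chr13:23317492-23317549, had a fold of 11.01. Most of the 31 were Neat1 peaks, of up to 1730 nt, and many of the 31 had no partner over at least 50% of their length. The share at this fold was not taken over all peaks or in protein-coding genes, so these counts have no background beside them.

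The DRACH consensus was found in 51 of the 89 peaks with a readable sequence (57.3%, interval 46.9 to 67.1), against 52.5% of 2341 such peaks in protein-coding genes and 52.8% of all 2448. The motif is written with letters for sets of bases and was searched on the peak's strand, with overlapping sites counted. GAC, which can lie within it, was in 41 of the 89 (46.1%, interval 36.1 to 56.4), against 39.7% in protein-coding genes. TTTTT was in 12 of the 89 (13.5%, interval 7.88 to 22.1), against 12.7%. Per length, DRACH sites numbered 19.97 per kb in lncRNA genes and 23.3 per kb in protein-coding genes. The readable lncRNA peaks were wider, with a median of 35 nt against 30 nt, and 65 of the 89 were exonic. Without Neat1 and Malat1 the share with DRACH was 45.2%.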

How the data were processed

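The authors deposited a list of peaks for each WT CLIP library and a list of pairs shared by both. The submitters' processing notes name Novoalign 3.09.00, MACS2 2.1.1.20160309 and bedtools 2.25.0 and the build mm10. Peak names carry a p of 0.005. Each peak has a deposited score, a fold ratio over background and a −log10 p from the authors, unadjusted; peaks were called per library. A shared pair is a replicate 2 peak of which a same-strand replicate 1 peak covers at least 50%. The 304 intervals described are the replicate 2 peaks, distinct by position and strand together. Behind them stand 294 distinct replicate 1 peaks. A deposited count table was not used: its 8 library columns match no sample's labels, so Mettl3 KO was not compared with WT.

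Peaks were placed by midpoint on GENCODE M21 genes, exons from its basic transcripts. Sequence was read from transcripts that cover a peak; a genome was not used here. Gene names and tRNA genes came from GENCODE and, by symbol, RefSeq (GRCm38.p6); 23 of 41 hosted small RNA genes matched the RefSeq miRNA table. Shares carry Wilson 95% intervals. The values of 1 peak over a small RNA gene are not reported here. No test was run, and the peak readers were checked on simulated intervals. Read depth is unknown. The members and gene lists were chosen with earlier results of these data known. Named are lncRNA genes with 3 or more shared peaks, those of the 10 highest lower folds, hosts of small RNAs and listed genes, plus genes chosen after their values were seen (AI506816 beyond its host role, 4930483K19Rik, B230208H11Rik, 4930407I19Rik, 4930586N03Rik and listed genes without a shared peak). The tools were pandas 2.3.3, numpy 2.4.6, scipy 1.17.1 and matplotlib 3.10.9 under Python 3.11.15.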

Additional observations from a re-analysis of the deposited data

How the results depend on the processing

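The count of 304 stayed within 1.5 times under placement by any overlap (304), strand ignored (226), 50% overlap of each peak (265), protein-coding genes of either strand left out (218), Neat1 and Malat1 left out (277), 10 gene types (306) and, chosen after seeing the data, intervals on both strands left out (222). With a fold of at least 5 in both replicates the count was 20, the exonic share 40% and the median lower fold 6.65, by construction fewer and stronger peaks. The DRACH share was 91.7% and the share with TTTTT 25%, over only those of the 20 with a readable sequence. Among them are Neat1 peaks of 249 and 281 nt, while all readable peaks in lncRNA genes had a median width of 35 nt. The motif shares were not taken over all shared peaks of that fold. A single replicate's list without the other held 7014 to 7437 peaks with an exonic share of 12.4% to 12.7% and a median fold of 1.92 to 1.95. Without Malat1 and Neat1 the exonic share was 14.1% and the DRACH share 45.2%. The share of replicate 2 peaks with a partner, 4.09%, became 6.21% at 1 bp of overlap, 3.56% at 50% of each peak, 18.7% at a −log10 p of at least 5 and 5.23% for replicate 1 peaks. Windows of 100 nt gave a DRACH share of 81.7%, being longer. The planned count tests of Mettl3 KO against WT were not run, since no library column matches a label. No paired analysis was possible because the results come from no test and only WT CLIP peak lists were used. Read depth is unknown here.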
